A study of Mus musculus with 2 samples.

Results

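The messenger RNAs of 7 genes of the RAS-RAF-MEK-ERK cascade were followed in 46C cells, a mouse embryonic stem cell line, carrying either a control hairpin or one directed at LincU, a long noncoding RNA. The 7 genes are the RAS GTPase genes Hras and Nras, the RAF kinase genes Araf and Braf, the MEK genes Map2k1 and Map2k2, and the ERK gene Mapk3. They were taken as every probe outside the array's controls that carries one of these gene names. This gave 18 probes of 56605 on the array, and all 7 genes were among the 21018 genes measured on both arrays. Of the 18 probes, 16 were well above background on both arrays.

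RAS proteins are membrane-bound switches that are active when they hold GTP. Active RAS recruits RAF kinases, RAF phosphorylates MEK, and MEK phosphorylates ERK, which then acts on targets in the cytoplasm and nucleus. In mouse embryonic stem cells this cascade carries the FGF4 signal that moves cells out of the naive state, and inhibitors of MEK are used to hold them there. Its activity is set mainly by GTP loading and phosphorylation, neither of which an RNA array measures.

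The cells were grown in serum with LIF on feeder cells, which were taken away before harvest, in both groups. One group is labelled shCtrl, although its title calls it WT, and the other shLincU. Each group has 1 array of Cy3-labelled total RNA, so there is no replicate and no test between groups. The labels do not say whether either hairpin line is a pool or a clone. The series title ties LincU to naive pluripotency through a limit on ERK activity, which is the question these genes bear on. LincU was not analysed here, because no probe carries its name, and every direction rests on the array labels.

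Most signals were lower on the shLincU array before scaling, with a 75th percentile of 626 intensity units for shCtrl and 420 for shLincU. Differences below are therefore log2 values relative to that percentile, shLincU minus shCtrl. No spot was saturated. Of the 21018 genes, 86.6% differed by no more than 0.5. The SD between repeated spots of a probe had a median of 0.038 for shCtrl and 0.040 for shLincU, over 300 probes spotted 10 times. The error given beside each difference is that of the scanner software and is nearly the same, about 0.20, for every single bright probe. For a gene it was combined over the probes, and for a pair over both genes, as if the probe errors were independent. Gene and pair errors thus shrink with more probes and leave out disagreement between probes. Stem cell markers were present on both arrays, with all 8 of 8 listed genes measured and a median difference of -0.0055. They ran from -0.24 for Klf4 to 0.27 for Nanog, whose bright probe was at -0.26 and dim one at 0.79. Of 5 primitive endoderm markers 4 were measured, all with a signal below that of the median gene. All 4 were above 0, with a median of 0.12 and Gata4 highest at 0.81. The remaining one, Pdgfra, was well above background on shCtrl alone. Of 4 neural markers 2 were above 0 and 2 below. Fibroblast markers differed more. Of 9 listed genes 8 were measured on both arrays, with 6 below 0 and 2 above. Of these 8, 4 were at least 2-fold lower on shLincU, where 1.53% of all genes were. Col1a1 and Col3a1 went the other way, at 0.45 and 0.64. The summed signal of the 8 genes, in multiples of the 75th percentile, was 12.3 on shCtrl and 6.32 on shLincU. The remaining gene, Lum, was well above background on the shLincU array alone. The part of these cells in the values below was not tested. In total RNA, fewer cells of a type and less RNA per cell cannot be told apart.

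The probes decide which stretch of each transcript was read. All are 60 bases long and are given here in the sense of the messenger RNA, 5′ to 3′, with mm9 coordinates from the array and the base of the transcript at which the array places them. The first set is shown because it holds the probes by which the array reads Hras, part of Braf, and both MEK genes. The capitals mark the longest run shared by the Map2k1 and Map2k2 probes, 7 bases, at the end of the first and the start of the second. Both MEK probes cover more than 60 bases of the genome (400 for Map2k1 and 1067 for Map2k2), so each crosses an intron and reads spliced RNA.
Hras, chr7:148377296-148377355, minus strand, from base 667: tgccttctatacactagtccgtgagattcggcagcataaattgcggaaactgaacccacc
Braf, chr6:39589607-39589666, minus strand, from base 1895: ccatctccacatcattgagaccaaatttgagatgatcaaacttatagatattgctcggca
Map2k1, chr9:64035128-64035527, minus strand, from base 1291: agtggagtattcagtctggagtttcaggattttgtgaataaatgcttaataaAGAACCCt
Map2k2, chr10:80585320-80586386, plus strand, from base 1257: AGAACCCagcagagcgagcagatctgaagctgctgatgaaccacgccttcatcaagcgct

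The second set gives the first 30 bases of 4 probes on which the gene values below turn: the one Mapk3 probe, the Braf probe that stands apart from the others of its gene, and the 2 Araf probes, which differ from each other.
Mapk3, chr7:133908973-133909032, plus strand, from base 1414: tgtctttatctacccttgctagccccggct
Braf, chr6:39557807-39557866, minus strand, from base 5097: gaagctgtgcccagaaaccaggctcagggt
Araf, chrX:20429801-20429860, plus strand, from base 1340: ctgggctacatgagactgtcttaaaacagt
Araf, chrX:20437462-20437521, plus strand, from base 2174: tatctccaatggctgtgactcagtgcaagg

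Among the 18 probes, none shared a run of more than 17 bases with a probe of another gene on either strand. Whether a probe lies in coding or untranslated sequence was not looked up, since no annotation of mm9 was used here.

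None of the 7 genes differed 1.5-fold or more between the arrays. Their differences ran from -0.23 for Araf to 0.50 for Mapk3, with a median of 0.17, against a median of 0.020 over all genes. At 2-fold the count was 0 of 7, where 2.67% of all genes passed, and at 1.5-fold it was 0 of 7, where 9.62% passed. In the brighter part of the genes, those with a signal no lower than the median gene, which holds 6 of the 7, these shares were 0.828% and 4.57%. By direction, 1.5-fold was passed upward by 4.78% and downward by 4.84% of all genes, and by 2.17% and 2.4% of the brighter ones. At 2-fold 0.552% of the brighter genes were lower on shLincU. A count of 0 among 7 genes is thus near what the background shares give. Of the 7 genes, 5 were above 0 and 2 below, where 53.1% of all genes and 53.4% of the brighter ones were above 0. Scaled to the E1A spike-in controls instead, which moves the median of all genes by -0.89, all 7 were below 0, so these directions are relative to the bulk of genes.

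**Figure D1:**
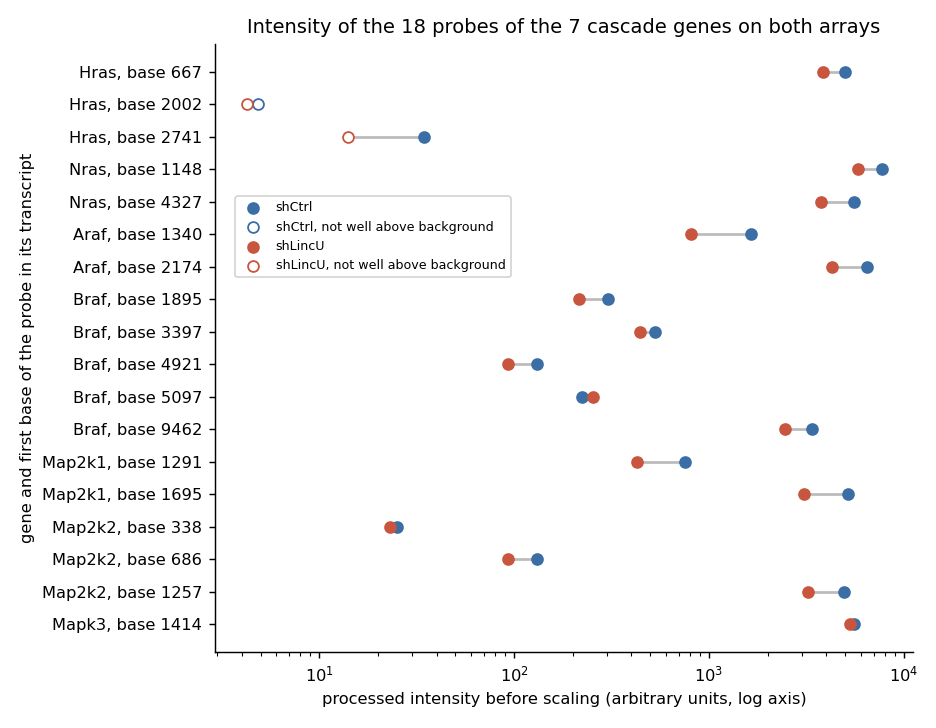
Processed intensity on a log axis, before scaling, of each of the 18 probes on the shCtrl array (blue) and the shLincU array (red), with the first base of the probe in its transcript on the vertical axis; open circles are spots not well above background. Of the 18 probes, 17 were dimmer on the shLincU array and 1, the Braf probe from base 5097, was brighter.

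The plot of probe intensities shows the general loss of signal. Of all probes measured on both arrays, 5.63% were brighter on the shLincU array before scaling. Of the 18 cascade probes 1 was, the Braf probe from base 5097. Of the other 17, the Mapk3 probe stood closest to equality, with 5576 units on shCtrl and 5288 on shLincU.

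Hras encodes one of the ubiquitous RAS GTPases. Its probe from base 667 read 5012 units on shCtrl and 3843 on shLincU. After scaling the difference was 0.19 ± 0.20, a ratio of 1.14, which lies within the scanner error. The other two Hras probes were dim. The one from base 2741 read 34.6 units on shCtrl and 14.1 on shLincU, where it was not well above background, so shCtrl was at least 1.12-fold higher there. The one from base 2002 was not well above background on either array. Hras thus rests on 1 probe, and with the dim probes included its difference was -0.049.

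Nras encodes a second RAS GTPase, close in sequence to Hras. Its probe from base 1148 read 7691 units on shCtrl and 5839 on shLincU, a difference of 0.18 after scaling. The probe from base 4327 read 5563 and 3736 units, a difference of -0.00012. Both probes were bright, and they differed from each other by less than the scanner error of either. Their mean was 0.088 ± 0.14, with an SD of 0.13 between the 2 probes. Hras minus Nras came to 0.10 ± 0.25, so the RAS genes could not be told apart.

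Araf encodes a RAF kinase and lies on the X chromosome. Its probe for transcript variant 1, from base 2174, read 6449 units on shCtrl and 4269 on shLincU, a difference of -0.021 after scaling. The probe that the array assigns to transcript variant 2, from base 1340, read 1643 and 813 units, a difference of -0.44 ± 0.20. The signal of the variant 2 probe was thus lower on shLincU relative to the variant 1 probe of the same gene. The 2 probes lie more than 7 kb apart in the genome. The gene mean was -0.23 ± 0.14, and their SD of 0.30 stood at percentile 75.7 among 4593 genes with 2 measured probes, whose median SD was 0.15. With the brighter probe alone, Araf was at -0.021.

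Braf encodes the RAF kinase with the strongest basal activity toward MEK, and was read by 5 probes, all well above background. The brightest, from base 9462, read 3395 units on shCtrl and 2468 on shLincU, a difference of 0.11. The probes from bases 1895 and 4921 stood at 0.085 and 0.090, and the one from base 3397 at 0.32. The probe from base 5097 stood apart from these 4, with 223 units on shCtrl and 255 on shLincU, a difference of 0.77 ± 0.21.

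The Braf probe from base 5097 was the only one of the 16 probes measured on both arrays to differ 1.5-fold or more, where 10.1% of all such probes did. No spot within 2 rows and 1 column of it differed 2-fold in the same direction. The gene mean was 0.28 ± 0.094, and 0.15 with an SD of 0.11 over the 4 remaining probes. The SD over all 5 was 0.29, close to the median of 0.27 for the 169 genes with 5 measured probes. Disagreement of this size between probes was thus common among such genes.

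Map2k1 encodes MEK1, a kinase with both ERK proteins as its known substrates. Its brighter probe, from base 1695, read 5175 units on shCtrl and 3066 on shLincU, a difference of -0.18. The intron-crossing probe from base 1291 read 749 and 426 units, a difference of -0.24. The 2 probes agreed closely, with an SD of 0.042 that stood at percentile 16.0 among genes with 2 measured probes. The gene mean was -0.21 ± 0.14. Both spots lie in the lower rows of the array, and 1 spot near that of the base 1291 probe differed 2-fold in the same direction.

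Map2k2 encodes MEK2, the paralog of MEK1. Its intron-crossing probe, from base 1257, read 4902 units on shCtrl and 3219 on shLincU, a difference of -0.032 after scaling. The probes from bases 686 and 338 belong to other annotated transcripts of the gene. The first read 131 units on shCtrl and 93.2 on shLincU, a difference of 0.088. The second read 25.0 and 23.0 units, a difference of 0.45 ± 0.44. The mean of the 3 was 0.17 ± 0.18, and its sign turned when only the brightest probe was used. Map2k1 minus Map2k2 came to -0.38 ± 0.23, and to -0.15 with the brightest probe of each.

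Mapk3 encodes ERK1, a final kinase of the cascade. Its single probe, from base 1414, read 5576 units on shCtrl and 5288 on shLincU. After scaling it stood at 0.50 ± 0.20, a ratio of 1.41, which is the highest of the 7 genes and short of 1.5-fold. Of all genes 93.2% had a lower difference, and of the brighter genes 96.6% did. No spot near it differed 2-fold in the same direction. With 1 probe on 1 array per group, the spread between cultures is unknown, and a difference this size or larger in either direction was seen in 7.03% of the brighter genes.

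**Figure D2:**
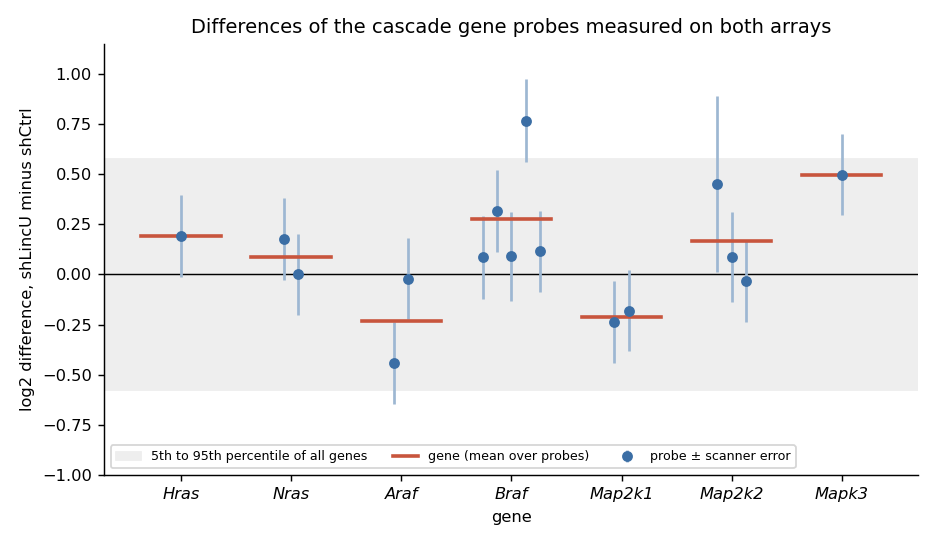
Log2 difference, shLincU minus shCtrl, of each probe measured on both arrays (blue points, bars are the scanner software's error) and the mean over the probes of a gene (red lines), over the range from the 5th to the 95th percentile of all genes (grey). The Braf probe at 0.77 is the only one outside the grey range of -0.58 to 0.57.

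The plot of probe differences shows that 15 of the 16 probes lay inside the central 90% of all genes. That range is of gene values, each a mean over the measured probes, and was not taken over single probes. The probes of Araf, Braf and Map2k2 spread over 0.42, 0.68 and 0.48, those of Nras over 0.18 and those of Map2k1 over 0.059.

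**Figure D3:**
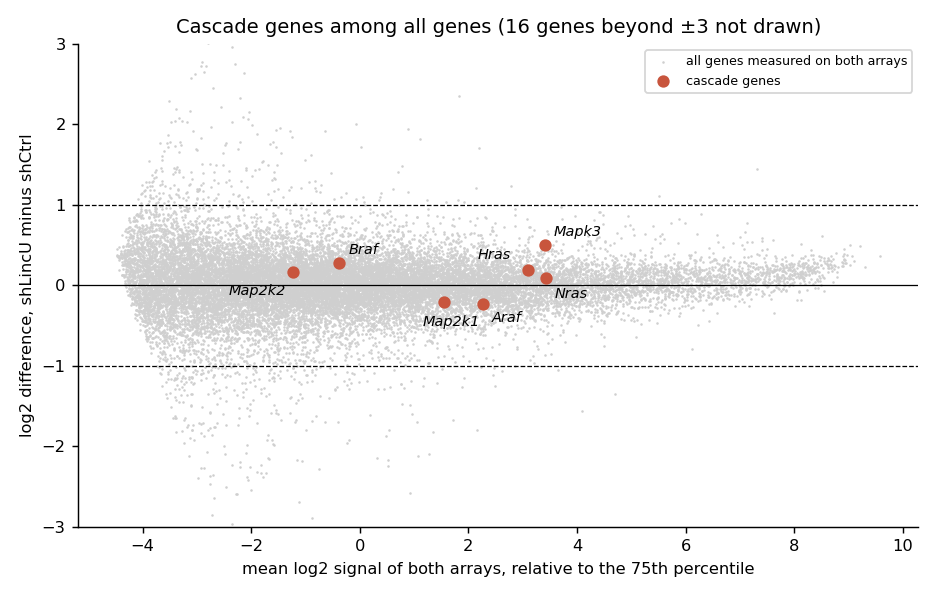
Log2 difference, shLincU minus shCtrl, against the mean log2 signal of both arrays relative to the 75th percentile, for all 21018 genes (grey) and the 7 cascade genes (red); dashed lines mark 2-fold and 16 genes beyond 3 in either direction are not drawn. All 7 lie between the dashed lines, and Mapk3 is the highest at 0.50.

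The plot over all genes shows wider scatter among dim genes. In the brighter part of the genes the 5th and 95th percentiles were -0.43 and 0.42, so Mapk3 lay just outside and the other 5 cascade genes of that level inside. Map2k2 was below the median level through its dim probes.

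Since every value of an array is scaled by the same number, the difference of one gene minus that of another does not depend on the scaling. Of the 21 pairs of the 7 genes, the widest was Araf minus Mapk3 at -0.73 ± 0.25, followed by Map2k1 minus Mapk3 at -0.71 ± 0.25. With the brightest probe of each gene these came to -0.52 and -0.68. The Mapk3 signal was thus higher on shLincU relative to that of Map2k1, by a like amount whichever Map2k1 probe was used. Araf minus Braf, the RAF pair, came to -0.51 ± 0.17 and to -0.14 with the brightest probes. No test stands behind these values.

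**Figure D4:**
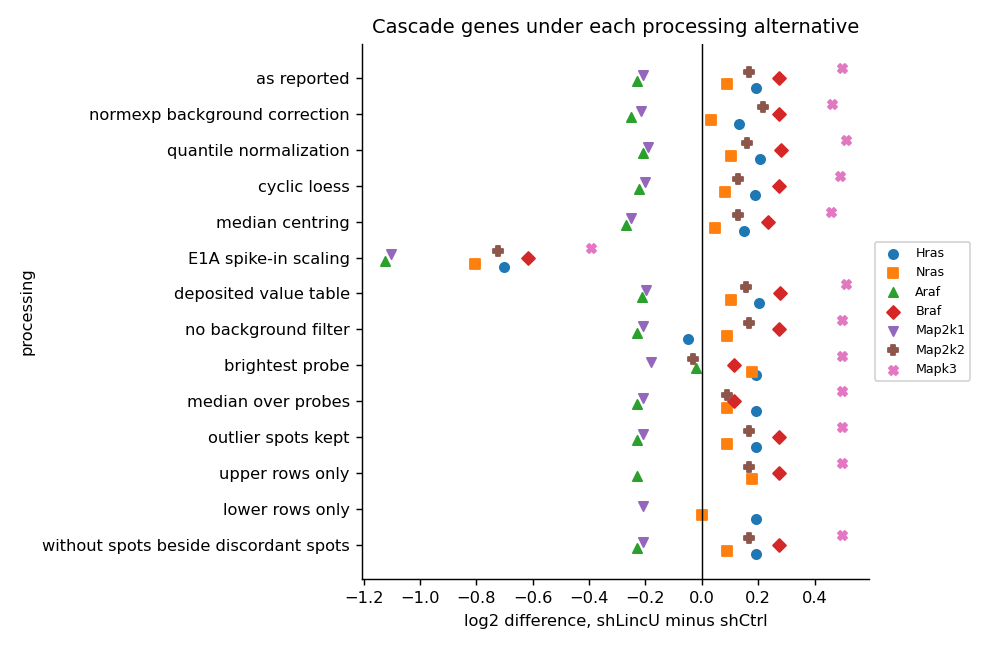
Log2 difference, shLincU minus shCtrl, of each of the 7 cascade genes (symbols) as reported and under each of 13 processing alternatives (rows). Mapk3 stays the highest and Araf and Map2k1 below 0 in every row in which they were measured, while E1A spike-in scaling moves all 7 below 0. Mapk3 has 1 probe, so rows that change only which probes or spots are used cannot move it.

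In the plot of processing alternatives, Mapk3 lay between 0.46 and 0.51 in each one in which it was measured other than E1A scaling, where it was at -0.39. Mapk3 has 1 probe on the array, without outlier spots. Changes to the background filter, the probe summary, the outlier spots or the slide position could therefore not move its value, only remove it. Map2k1 lay between -0.25 and -0.18 and Araf between -0.27 and -0.021, again apart from E1A scaling.

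The genes around the cascade were read from 6 lists with 122 genes, 115 of them measured on both arrays. Their median difference was 0.042, with 67 above 0 and 48 below. At 1.5-fold 3 were higher and 2 lower, 4.35% of the 115 against 9.62% of all genes and 4.57% of the brighter ones. The 115 hold both brighter and dimmer genes. At 2-fold 1 of the 115 was lower, Rerg, where 1.53% of all genes were, so this count is no more than the background share gives.

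Other RAS family GTPases had a median of -0.060 over 18 genes, with 7 above 0 and 11 below. Rerg, which encodes a small GTPase first described as a growth inhibitor under estrogen control, read 156 units on shCtrl and 42.3 on shLincU, a difference of -1.31 ± 0.26. It was the only one of the lists' genes at least 2-fold apart, it was below the median level, and it rests on 1 probe. Its second probe was not well above background on either array, and with it included Rerg was at 0.0031. With normexp background correction Rerg was at -0.52. Diras1, Rras2 and Rras stood at 0.31, 0.26 and 0.25.

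Other kinases of MAP kinase cascades had a median of 0.098 over 26 genes, with 18 above 0 and 8 below, and none was 1.5-fold apart. Mapk6, an atypical MAP kinase also called ERK3, stood at 0.56 ± 0.12, with its 3 probes between 0.45 and 0.72, and just past 1.5-fold at 0.59 when only the upper rows were read. Mapk12 and Mapk11, which encode p38 kinases of the stress pathway, stood at 0.51 and 0.37, and Mapk4, another atypical kinase, at 0.39. The 3 probes of Mapk12 lay between 0.44 and 0.60.

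Activators and inhibitors of RAS had a median of -0.020 over 20 genes, with 9 above 0 and 11 below, and none was 1.5-fold apart. Shc1, an adaptor between receptors and RAS activation, stood at 0.30, with its 2 probes at 0.27 and 0.32. Rasa1 and Rasal2, GTPase-activating proteins that switch RAS off, stood at -0.30 and -0.26, and Rasal2 turned to 0.032 with normexp background correction. Spred1, an inhibitor of RAF activation, stood at 0.42, but its 2 probes were at 0.048 and 0.79 and the brighter one was the lower.

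Enzymes and carriers that process or move lipid-modified RAS had a median of 0.042 over 7 genes, with 4 above 0 and 3 below. Fntb, the beta subunit of the farnesyltransferase that attaches the lipid anchor, read 726 units on shCtrl and 754 on shLincU, a difference of 0.63 ± 0.20. It passed 1.5-fold on 1 probe, and was short of it at 0.57 with normexp background correction. Zdhhc9, a subunit of the enzyme that palmitoylates HRAS and NRAS, stood at 0.39, and Icmt, which methylates the end of RAS, at 0.38 with probes at 0.12 and 0.64. Pde6d, a carrier of farnesylated RAS, stood at -0.43.

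Scaffolds and binding partners of the cascade had a median of 0.18 over 24 genes, with 18 above 0 and 6 below. Pebp1, which binds RAF and keeps it from MEK, read 86744 units on shCtrl and 87733 on shLincU, a difference of 0.59 ± 0.20, just past 1.5-fold. It was short of 1.5-fold at 0.53 with normexp background correction, 0.47 with quantile normalization, 0.51 with cyclic loess, 0.55 with median centring and 0.46 in the deposited value table. Sfn, one of the 14-3-3 proteins, and Cnksr1, a scaffold, stood at 0.52 each. Cnksr1 rests on 1 dim probe, with 64.0 units on shCtrl and 61.5 on shLincU, while Sfn read 24005 and 23135 units. Ksr1, the scaffold that holds RAF, MEK and ERK together, stood at -0.92, the mean of probes at -1.46 and -0.38. The spot of the Ksr1 probe at -1.46 had 2 neighbours that differed 2-fold in the same direction, and without it Ksr1 was at -0.38. It was also at -0.29 with normexp background correction.

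Kinases and transcription factors on which ERK acts had a median of 0.023 over 20 genes, with 11 above 0 and 9 below. Rps6ka6, a member of the RSK kinase family, stood at 0.72 and was 1.5-fold higher, through probes at 1.11 and 0.32 of which the brighter was the lower and alone falls short of 1.5-fold. Rps6ka1, another RSK, stood at 0.26 with both probes above 0. Rps6ka3, a further RSK, stood at -0.36, but 2 of its 3 probes were near 0, at 0.059 and 0.033, and the third at -1.16, so that the median over its probes was 0.033. The spot of the probe at 0.033 had 2 neighbours that differed 2-fold in the same direction as each other. Without that probe Rps6ka3 was at -0.55. Elk4, an ETS factor phosphorylated by ERK, stood at -0.29 with probes from -0.60 to 0.24, one of them with 4 such neighbouring spots. It was at -0.090 with normexp background correction and at -0.50 with its brightest probe alone, which is the one with those 4 neighbours. Without that probe Elk4 was at -0.18.

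**Figure D5:**
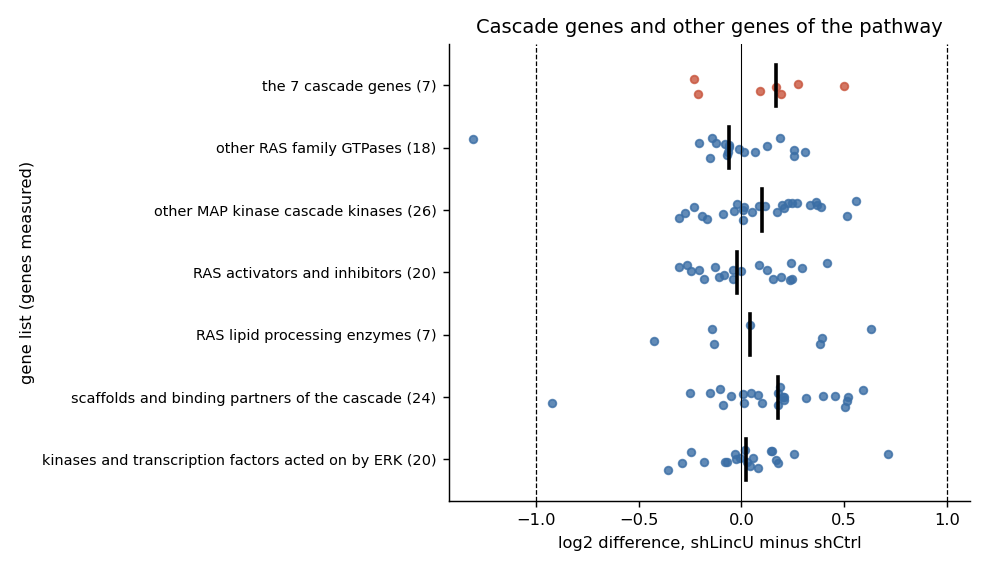
Log2 difference, shLincU minus shCtrl, of each measured gene (points, spread vertically for legibility) in the 7 cascade genes (red) and the 6 pathway lists (blue), with the median of each as a black line and dashed lines at 2-fold. The medians run from -0.060 for the other RAS family GTPases to 0.18 for scaffolds and binding partners, and Rerg is the only gene past 2-fold.

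The plot of pathway lists shows most points within 0.5 of 0 in each list. The 7 cascade genes had a median of 0.17 and the scaffolds one of 0.18, with both groups holding genes on either side of 0. Neither size is settled: the first was 0.088 without a background filter or with the median over probes, and the second 0.094 with quantile normalization and 0.093 in the deposited value table. Without a background filter the median of all genes was 0.14.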

How the data were processed

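Spot intensity was extracted by the authors with Agilent Feature Extraction, version 10.7.1.1 in the submitters' processing notes. Spatial and multiplicative detrending were applied to the processed intensity, per the file headers. Other deposited columns, with 0 or 1, mark spots near background, saturated or outlying. The authors' deposited value table is on a log2 scale, with a median of 5.65 for each array, and how it was normalized is not given in the sources.

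Log2 of the processed intensity minus the array's 75th percentile over 56572 probes was used. Control and outlier spots were left out and repeated spots averaged. A gene's value is the mean over probes that both arrays called well above background. Probes were named through the RefSeq table of GRCm38, by accession (32989), symbol (10228) or synonym (519), or as on the array (12869). Where only one array measured a probe, the fold is a lower bound, taken against the dimmest probe that still passed on the other array. With 1 array per group, genes were counted by fixed sizes of 2-fold and 1.5-fold. Named genes were the 7 genes, and from each of 6 lists those past 2-fold and the 4 furthest from 0. The cascade genes and the lists were chosen with earlier results of these data known. Alternatives were normexp with an offset of 50, quantile normalization, cyclic loess, median centring, scaling to 8 E1A controls, the value table, no background filter, the brightest or median probe, outlier spots kept, and slide position. The calculation was tested on simulated data. The software was limma 3.58.1 in R 4.3.3, and numpy 2.4.6, pandas 2.3.3 and matplotlib 3.10.9 in Python 3.11.15.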

Additional observations from a re-analysis of the deposited data

How the results depend on the processing

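No paired analysis was possible because shCtrl and shLincU have 1 array apiece, which also means that none could be omitted. With E1A scaling left out, no alternative put any of the 7 genes past 1.5-fold. Their median then stayed above 0 except at -0.00012 for the 3 genes read in the lower rows. It fell below the median of all genes in those rows, which was 0.025, and without a background filter, at 0.088 against 0.14. Medians of the lists near 0 have no settled sign against 0. With normexp correction the other RAS family GTPases were at 0.018, RAS activators and inhibitors at 0.087 and lipid processing enzymes at -0.012. That setting put the median of all genes at 0.088. With median centring the targets of ERK were at -0.018 and the median of all genes at -0.020. Relative to the median of all genes, the other RAS family GTPases stayed lower in every alternative, at -0.20 to -0.0037. Activators and inhibitors ran from -0.10 to 0.011 on that scale. The background filter's removal moved the median of all genes by 0.12. E1A scaling moved the median of the 7 genes to -0.72, with 2 genes past 2-fold and 6 past 1.5-fold. Under it the list medians were -0.95 for other RAS family GTPases, -0.79 for other MAP kinase cascade kinases, -0.91 for RAS activators and inhibitors, -0.85 for lipid processing enzymes, -0.72 for scaffolds and -0.87 for kinases and factors acted on by ERK, while 84.8% of all genes passed 1.5-fold. Rerg turned from -1.31 to 0.0031 without a background filter, because a dim probe was added. Dim probes enter the values of Map2k2, Rerg, Ksr1 and Cnksr1, among others, and the number of arrays limits every value.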

Other observations

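Probes of other genes within 15 kb of the cascade probes were also read, a choice by position made after seeing the data. A probe of Syn1, the gene of the synaptic vesicle protein synapsin, lies 120 bases beyond the outer Araf probe on the opposite strand. It read 1013 units on shCtrl and 481 on shLincU, a difference of -0.50 ± 0.20, while the Araf probe beside it stood at -0.021. Timp1, an inhibitor of metalloproteases on the same side, stood at -0.16. Snapc5 and Rpl4, next to Map2k1, were at 0.035 and 0.30. The 2 bright probes of Ndufb2, a respiratory chain gene beside Braf, were at -0.014 and -0.076. The 3 probes of Ypel3, 12025 bases or more from the Mapk3 probe, lay between -0.11 and 0.041 and did not share its difference of 0.50. Of these 3, 1 was dim, with 45.7 units on shCtrl and 31.6 on shLincU. The nearer Gdpd3 probe, at 5488 bases, was not well above background on either array.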
